A study of Mus musculus with 12 samples.

Results

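Gata4, Gata6, Hand2, Nkx2-5, Tbx5, Mef2a, Mef2c, Mef2d, Srf and Hopx encode transcription factors of the cardiac lineage. They were taken by gene symbol from the gene-level count table, where each of the 10 symbols had 1 entry among 54178 gene entries, and all 10 were among the 15226 genes tested. RNA was sequenced from mouse samples labelled whole heart, called hearts below, in 12 libraries, 3 in each of 4 groups: KO mice labelled sedentary, Flox mice labelled sedentary, KO mice labelled exercise and Flox mice labelled exercise. Flox mice carry CITED4 flox/flox alleles. KO mice come from crossing them with aMHC-cre mice, in which the alpha myosin heavy chain promoter drives Cre in cardiomyocytes, and no group carries Cre without the floxed alleles. Mice had voluntary running wheels or stayed sedentary for 8 weeks. The floxed alleles are thus shared by all 4 groups. The sample titles pair the word sedentary with a bracketed code letter E and the word exercise with the letter S, so groups are called here by the treatment word. If the letters were the correct ones, the exercise differences and the interaction would change sign and the genotype comparisons under the 2 labels would exchange names. The labels give no strain, sex or age, nor do they state that each library came from a separate animal, so p-values measure the spread between libraries.

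GATA4 and GATA6 are zinc-finger factors that bind GATA sequences, HAND2 is a basic helix-loop-helix factor, NKX2-5 a homeodomain factor and TBX5 a T-box factor. The MEF2 proteins and SRF are MADS-box factors that bind the MEF2 box and the CArG box in promoters of contractile genes, and HOPX is a small homeodomain protein that lacks DNA binding of its own and acts through partners such as SRF. These factors build the heart in the embryo, act together on shared promoters such as that of Nppa, the atrial natriuretic peptide gene, and stay expressed in the adult heart. TBX5 is known for its part in atrial identity and the conduction system, and its RNA is more abundant in atria than in ventricles of the adult mouse. CITED4 belongs to a family of co-activators that bind CBP and has been studied in exercise-induced growth of the heart.

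The promoters of Nppa, a shared target, and of Srf and Hopx, whose products work together, are shown with the letters that these families of factors are known to prefer. Sequences are from RefSeq on build GRCm38.p6, each 300 bases long, from 250 bases before to 50 after the start site, read 5′ to 3′ on the gene's strand. Capitals mark matches, on either strand, to the GATA letters AGATAA and TGATAA, the NKX letters AAGTG, the T-box letters AGGTGT, the CArG box and the MEF2 box.
Nppa, chr4:148000472-148000771, plus strand: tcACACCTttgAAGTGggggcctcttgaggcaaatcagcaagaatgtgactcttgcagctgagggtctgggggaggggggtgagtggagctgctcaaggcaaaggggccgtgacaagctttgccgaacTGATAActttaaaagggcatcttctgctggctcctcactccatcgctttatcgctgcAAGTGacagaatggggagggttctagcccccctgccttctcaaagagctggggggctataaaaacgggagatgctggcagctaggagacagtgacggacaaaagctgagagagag
Srf, chr17:46556113-46556412, minus strand: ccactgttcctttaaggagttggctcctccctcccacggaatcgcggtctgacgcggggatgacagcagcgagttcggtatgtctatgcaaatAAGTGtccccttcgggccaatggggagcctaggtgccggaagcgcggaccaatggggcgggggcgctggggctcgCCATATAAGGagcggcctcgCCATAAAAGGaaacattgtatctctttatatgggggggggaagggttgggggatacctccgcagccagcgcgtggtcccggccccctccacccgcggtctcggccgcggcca
Hopx, chr5:77115074-77115373, minus strand: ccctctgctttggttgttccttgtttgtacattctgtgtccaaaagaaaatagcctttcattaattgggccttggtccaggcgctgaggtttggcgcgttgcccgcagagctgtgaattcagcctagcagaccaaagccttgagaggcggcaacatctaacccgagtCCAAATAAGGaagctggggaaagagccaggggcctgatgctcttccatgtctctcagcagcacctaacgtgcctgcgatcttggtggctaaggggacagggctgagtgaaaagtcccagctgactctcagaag
The Nppa promoter held TGATAA at -122 to -117 from the start site, AAGTG at -239 to -235 and again at -65 to -61, and AGGTGT on the reverse strand at -248 to -243. The Srf promoter held a pair of CArG boxes, at -82 to -73 and -62 to -53, and AAGTG at -157 to -153, and this Hopx promoter held a CArG box at -83 to -74. The other Hopx promoter in the RefSeq table, not printed, held no CArG box and 3 matches to AAGTG. Of 32851 mouse promoters of this length, 11.2% held AGATAA, 9.05% TGATAA, 46.4% AAGTG, 13.7% AGGTGT, 1.63% a CArG box and 0.557% a MEF2 box. Promoters were found for 7 of the 10 factors. The Mef2a promoter held a MEF2 box at -2 to 8, the Hand2 promoter held a match to either set of GATA letters and to the NKX letters, and the Nkx2-5 and Mef2d promoters held none of the 6 motifs. A match describes letters and is no measurement of binding.

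Cited4 checked the genotype labels. Levels are given as CPM, a gene's count per 1000000 counts of its library, with libraries scaled by edgeR's trimmed mean of M-values. Cited4 had 0.24, 0.09 and 0 CPM in KO hearts labelled sedentary, against 16.3, 10.1 and 14.9 CPM in Flox hearts labelled sedentary. It had 0.15, 0 and 0 CPM in KO hearts labelled exercise, against 23.2, 13.7 and 23.9 CPM in Flox hearts labelled exercise. Library totals ran from 17465400 to 20467300 counts, and 21.6 to 28.3% of counts fell on mitochondrially encoded genes. Cardiomyocyte genes were present in every library: the summed CPM of a list of working-cardiomyocyte genes ran from 63060 to 76062 in KO hearts labelled sedentary, against 83812 to 87244 in Flox hearts labelled sedentary. Under the exercise label it ran from 69146 to 83818 in KO hearts, against 73820 to 78824 in Flox hearts. In whole hearts, fewer cells of a type and less RNA per cell cannot be told apart.

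All 10 factors were expressed in every library, with at least 283 counts each. Per kilobase of exon, averaged over the 12 libraries, Hopx had the highest level at 156.9 CPM per kb. Nkx2-5, Mef2a, Gata4, Mef2d and Srf followed with 32.85, 29.79, 29.15, 26.59 and 24.54 CPM per kb, then Hand2 with 18.47, Gata6 with 14.42, Tbx5 with 9.109 and Mef2c with 7.722 CPM per kb. Exon lengths are those of the GENCODE M21 annotation on GRCm38, and which transcripts the authors counted against is not stated by the labels, so close neighbours in this order are not separated. The summed level of the 10 factors was 921 to 1012 CPM in KO hearts labelled sedentary and 917 to 1022 CPM in Flox hearts labelled sedentary. It was 957 to 1058 CPM in KO hearts labelled exercise and 893 to 959.5 CPM in Flox hearts labelled exercise. The ranges of KO and Flox hearts overlapped under both labels.

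Tbx5 varied far more between libraries than the other 9 factors. Over the 12 libraries the highest level of Tbx5 was 5.83 times its lowest, a ratio above that of 99.0% of the 8636 genes with a mean of at least 10 CPM, among which the median ratio was 1.48. The same ratio lay between 1.33 for Gata6 and 1.57 for Srf in the other 9, which were above 22.1 to 61.5% of those genes and so spread about as much as a typical gene. No factor passed the threshold of an adjusted p under 0.05 (edgeR's quasi-likelihood test, Benjamini-Hochberg adjustment over 15226 genes) in any of the 6 group comparisons, which were KO over Flox under each label, exercise over sedentary label in each genotype, the average KO effect and the interaction. Few genes passed in any of them: 0.125% of genes for KO over Flox among hearts labelled sedentary, 0.00657% among those labelled exercise, 0.0197% for exercise over sedentary label in KO hearts, 0% in Flox hearts, 0.0525% for the average KO effect and 0% for the interaction. At an unadjusted p under 0.05 there was 1 factor, Tbx5, for KO over Flox among hearts labelled sedentary, beside 13.5% of all genes. There was 1, Hand2, for exercise over sedentary label in Flox hearts, beside 7.41% of all genes, and 1, Hopx, for the interaction, beside 9.88%. The other comparisons had 0 factors, beside 7.94% of all genes for KO over Flox among hearts labelled exercise, 10.6% for exercise over sedentary label in KO hearts and 11.6% for the average KO effect. DESeq2 called none of the 10 in these comparisons either.

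**Figure D1:**
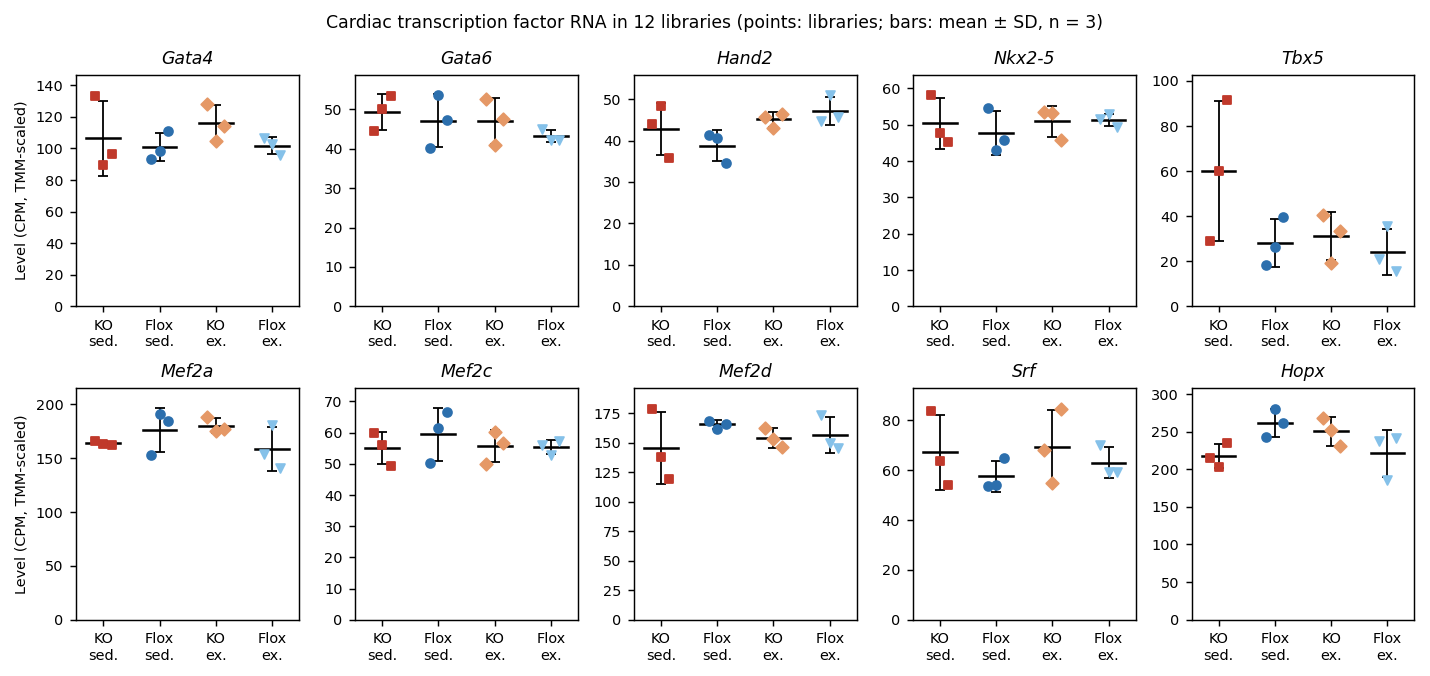
Level of each of the 10 factors in CPM (vertical axes, from 0) in each of the 12 libraries, by group (KO and Flox, labelled sedentary, sed., or exercise, ex.). Points are libraries, horizontal lines means and bars SD (n = 3). Tbx5 spreads from 15.7 to 91.3 CPM, and each of the other 9 stays within a 1.57-fold range.

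Gata4, which with Tbx5 and Nkx2-5 acts on the Nppa promoter, had 133, 89.6 and 96.3 CPM in KO hearts labelled sedentary, against 93.3, 98.3 and 111 CPM in Flox hearts labelled sedentary. It had 128, 105 and 114 CPM in KO hearts labelled exercise, against 106, 103 and 95.8 CPM in Flox hearts labelled exercise. One KO heart labelled sedentary stood highest of all 12 and another stood lowest, so these groups overlapped, as did those labelled exercise. The log2 difference was 0.08 ± 0.14 (SE, n = 3 each) with the sedentary label and 0.19 ± 0.14 with the exercise label.

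Gata6, the related factor that overlaps with Gata4 in cardiomyocytes, kept within 44.4 to 53.3 CPM in KO hearts labelled sedentary, against 40.3 to 53.7 CPM in Flox hearts labelled sedentary. It ran from 40.8 to 52.6 CPM in KO hearts labelled exercise, against 42.2 to 44.9 CPM in Flox hearts labelled exercise. The ratio of its CPM to that of Gata4, with no correction for length, was 0.333 to 0.560 in KO hearts labelled sedentary, against 0.426 to 0.547 in Flox hearts labelled sedentary. This ratio in hearts labelled exercise was 0.389 to 0.415 in KO hearts, against 0.410 to 0.442 in Flox hearts. The ratio's groups overlapped within each label.

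Hand2, a factor of ventricular and outflow development, had 45.8, 43.1 and 46.4 CPM in KO hearts labelled exercise, against 43.9, 48.3 and 35.9 CPM in KO hearts labelled sedentary. It had 44.7, 50.9 and 45.8 CPM in Flox hearts labelled exercise, against 41.3, 40.5 and 34.5 CPM in Flox hearts labelled sedentary. The exercise hearts lay above the sedentary ones in Flox, with no overlap, and overlapped in KO. The log2 difference in Flox was 0.28 ± 0.12 (SE, n = 3 each; edgeR adjusted p = 0.618), which missed the threshold, and 14.1% of all genes had groups that did not overlap in this comparison. The difference in KO was 0.08 ± 0.12, and the interaction was -0.20 ± 0.16 (edgeR adjusted p = 0.674).

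Hand2os1, a long non-coding RNA on the opposite strand whose span covers most of Hand2, was counted in every library, with 978 to 1321 counts. Whether the counting used strand is not given in the sources used here, so the reads of Hand2 and Hand2os1 may not be fully separated. Hand2os1 had 47.2, 55.0 and 53.1 CPM in KO hearts labelled sedentary, against 67.5, 64.8 and 60.5 CPM in Flox hearts labelled sedentary, and these groups did not overlap, as for 18.4% of all genes in this comparison. The log2 difference was -0.31 ± 0.09 (SE, n = 3 each; edgeR adjusted p = 0.176). In hearts labelled exercise it had 62.8, 60.7 and 57.4 CPM in KO, against 62.6, 69.5 and 67.9 CPM in Flox, which overlapped, with a log2 difference of -0.14 ± 0.09 (edgeR adjusted p = 0.713). Hand2 gave 0.14 ± 0.12 in hearts labelled sedentary (edgeR adjusted p = 0.649) and -0.06 ± 0.12 in hearts labelled exercise (edgeR adjusted p = 0.895). The sense and antisense genes thus differed in sign under the sedentary label only, without either passing. The ratio of Hand2 to Hand2os1 was 0.676 to 0.931 in KO hearts labelled sedentary, against 0.570 to 0.626 in Flox hearts labelled sedentary, with no overlap and no test, and 0.710 to 0.809 in KO hearts labelled exercise, against 0.674 to 0.734 in Flox hearts labelled exercise, which overlapped.

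Nkx2-5, the homeodomain factor that marks the cardiac lineage from its start, was among the most even of the 10. It had 58.3, 47.8 and 45.1 CPM in KO hearts labelled sedentary, against 54.5, 43.1 and 45.8 CPM in Flox hearts labelled sedentary. It had 53.6, 53.3 and 45.9 CPM in KO hearts labelled exercise, against 51.6, 52.8 and 49.4 CPM in Flox hearts labelled exercise. KO and Flox hearts overlapped under both labels, and the average KO effect was 0.03 ± 0.08 on the log2 scale (edgeR adjusted p = 0.912).

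The MEF2 factors were read as a family, since they share a binding site. Their summed level was 331 to 405 CPM in KO hearts labelled sedentary, against 372 to 417 CPM in Flox hearts labelled sedentary, and 380.0 to 401 CPM in KO hearts labelled exercise, against 343 to 384 CPM in Flox hearts labelled exercise. Mef2c, the member needed earliest in the embryonic heart, gave 14.8 to 15.7% of that sum in KO hearts labelled sedentary, against 13.5 to 16.0% in Flox hearts labelled sedentary. Its share in hearts labelled exercise was 12.5 to 15.5% in KO hearts, against 13.8 to 16.7% in Flox hearts. The family's make-up by CPM, with no correction for length, therefore overlapped between genotypes under both labels.

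Mef2a, the MEF2 factor with the highest level per kilobase here, had 188, 175 and 177 CPM in KO hearts labelled exercise, against 166, 164 and 163 CPM in KO hearts labelled sedentary. These groups did not overlap, as for 13.1% of all genes in this comparison, but the log2 difference of 0.13 ± 0.12 (SE, n = 3 each; edgeR adjusted p = 0.699) did not pass. In Flox hearts the sign was the other one: 154, 180 and 141 CPM labelled exercise, against 153, 191 and 184 CPM labelled sedentary, a log2 difference of -0.16 ± 0.12. The interaction was 0.29 ± 0.17 (edgeR adjusted p = 0.568). Lysmd4, a gene on the other strand that overlaps Mef2a, had 279 to 399 counts a library, against 2536 to 3654 counts for Mef2a.

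Mef2d, a MEF2 factor known from stress-dependent remodelling of the adult heart, had 179, 138 and 119 CPM in KO hearts labelled sedentary, against 169, 162 and 166 CPM in Flox hearts labelled sedentary. The KO hearts held both the highest and the lowest value of all 12, and the log2 difference was -0.19 ± 0.14 (SE, n = 3 each; edgeR adjusted p = 0.587). This value turned on 1 library: it ran from -0.38 without KO replicate 1 to -0.07 without KO replicate 3, with an adjusted p of at least 0.0808. Mef2d had 163, 153 and 146 CPM in KO hearts labelled exercise, against 174, 150 and 146 CPM in Flox hearts labelled exercise.

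Srf, whose product binds the CArG boxes shown in its own promoter, had 83.8, 63.5 and 54.1 CPM in KO hearts labelled sedentary, against 53.8, 54.0 and 64.7 CPM in Flox hearts labelled sedentary. It had 68.0, 54.9 and 84.5 CPM in KO hearts labelled exercise, against 70.1, 59.4 and 59.3 CPM in Flox hearts labelled exercise. The highest value under each label was a KO heart, but KO and Flox overlapped under both. The average KO effect was 0.18 ± 0.12 on the log2 scale (edgeR adjusted p = 0.615).

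Hopx, the factor with the highest level, had 214, 204 and 235 CPM in KO hearts labelled sedentary, against 243, 281 and 262 CPM in Flox hearts labelled sedentary. Every KO heart lay below every Flox heart under this label. Hopx was the 1 factor of the 10 whose groups did not overlap there, beside 18.4% of all genes. Under the exercise label it had 268, 252 and 231 CPM in KO hearts, against 237, 185 and 242 CPM in Flox hearts, which overlapped, and 14.8% of all genes but none of the 10 factors had groups apart there. The log2 difference was -0.27 ± 0.13 with the sedentary label (SE, n = 3 each; edgeR adjusted p = 0.385) and 0.18 ± 0.13 with the exercise label (edgeR adjusted p = 0.746).

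The interaction for Hopx was 0.44 ± 0.18 on the log2 scale, with an unadjusted p of 0.0275 and an edgeR adjusted p of 0.477, so the difference between the labels did not pass. In Flox hearts alone, the 3 labelled exercise lay below the 3 labelled sedentary (log2 difference -0.24 ± 0.13, edgeR adjusted p = 0.70), which with Hand2 made 2 of 10 factors without overlap in that comparison, beside 14.1% of all genes. In KO hearts the exercise and sedentary groups overlapped, at 0.20 ± 0.13.

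**Figure D2:**
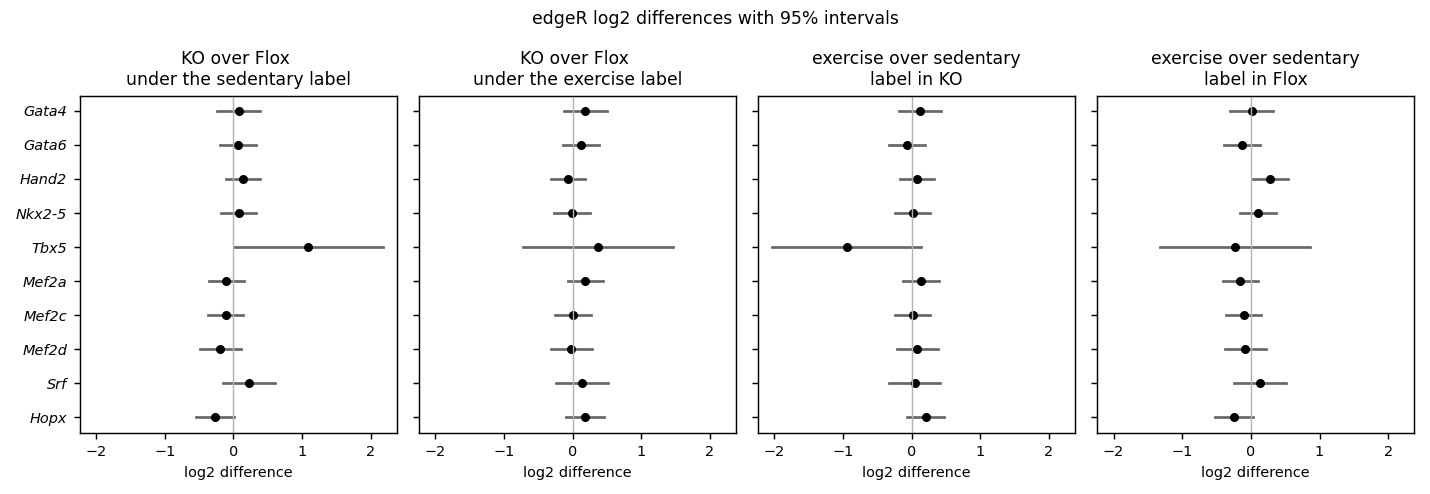
Log2 difference of each factor (horizontal axes) in 4 group comparisons, with points for the edgeR estimate and bars for its 95% interval. The 9 factors other than Tbx5 sit near 0 with narrow bars, and Tbx5 has the widest bar in each panel.

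For the 9 factors other than Tbx5 the intervals bound the sizes of the differences. The 95% intervals of these differences lay within 0.688- to 1.52-fold for KO over Flox with the sedentary label and within 0.802- to 1.43-fold with the exercise label. They lay within 0.793- to 1.39-fold for exercise over sedentary label in KO hearts and within 0.699- to 1.45-fold in Flox hearts. For the average KO effect they lay within 0.804- to 1.36-fold, and for the interaction within 0.651- to 1.78-fold. Among these intervals, those of Hand2 for exercise over sedentary label in Flox hearts and of Hopx for the interaction left out 0, and neither passed after adjustment.

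Tbx5 had 29.0, 60.0 and 91.3 CPM in KO hearts labelled sedentary, against 18.5, 26.5 and 39.7 CPM in Flox hearts labelled sedentary. It had 40.4, 19.5 and 33.6 CPM in KO hearts labelled exercise, against 21.0, 35.6 and 15.7 CPM in Flox hearts labelled exercise. A pair of KO hearts labelled sedentary stood above all the others, and the third lay inside the range of the Flox hearts, so the groups overlapped under both labels. KO over Flox under the sedentary label gave a log2 difference of 1.09 ± 0.48 (SE, n = 3 each; unadjusted p = 0.0494, edgeR adjusted p = 0.369), a fold of 2.12 that did not pass. It was 0.64 without KO replicate 3 and 1.41 without Flox replicate 3, the lowest and highest with 1 library left out. Under the exercise label it gave 0.37 ± 0.49 (edgeR adjusted p = 0.857), and the average KO effect was 0.73 ± 0.34 (edgeR adjusted p = 0.451). Exercise over sedentary label in KO hearts gave -0.95 ± 0.48 (edgeR adjusted p = 0.521), and -0.50 without KO labelled sedentary replicate 3. Without Flox labelled exercise replicate 2 the difference under the exercise label was 0.77, and without replicate 3 it was 0.13.

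The libraries also differed in the RNA of atrial genes. Myl7, the atrial regulatory light chain, had 126, 1319 and 2514 CPM in KO hearts labelled sedentary, against 1.24, 0 and 516 CPM in Flox hearts labelled sedentary. It had 309, 0.05 and 506 CPM in KO hearts labelled exercise, against 0.06, 389 and 1.27 CPM in Flox hearts labelled exercise. In 5 of the 12 libraries Myl7 was thus at or near 0, although every sample is labelled whole heart, and each group but the KO hearts labelled sedentary held libraries of both kinds. Nppa had 1001, 6195 and 13261 CPM in KO hearts labelled sedentary, against 198, 214 and 2604 CPM in Flox hearts labelled sedentary. Nppa had 2002, 157 and 1804 CPM in KO hearts labelled exercise, against 139, 2871 and 128 CPM in Flox hearts labelled exercise. The same libraries were low for both genes.

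An atrial marker index, the mean log2 CPM of 15 atrial cardiomyocyte genes, was 5.97, 8.25 and 8.75 in KO hearts labelled sedentary, against 2.71, 2.60 and 6.50 in Flox hearts labelled sedentary. It was 6.90, 2.43 and 6.29 in KO hearts labelled exercise, against 2.62, 7.04 and 3.08 in Flox hearts labelled exercise. The libraries fell into 5 with an index of at most 3.08 and 7 with an index of at least 5.97, a split found from the data and not given by any label. The summed CPM of the 15 genes ran from 2648 to 25623 in KO hearts labelled sedentary, against 811 to 5885 in Flox hearts labelled sedentary. The summed CPM of 11 ventricular marker genes ran the other way in these groups, at 10041 to 14954 in KO hearts, against 17464 to 19797 in Flox hearts. Of these 11 genes, 2 were positive for KO over Flox. Under the exercise label the ventricular sums overlapped, at 14984 to 18620 CPM in KO hearts, against 14797 to 20594 CPM in Flox hearts. There 7 of the 11 were positive, as were 13 of the 15 atrial genes.

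Bmp10, which the adult mouse expresses in the right atrium, did not follow the other atrial genes in every library, a gene chosen after its values were seen. It had 131, 790 and 930 CPM in KO hearts labelled sedentary, against 0, 0 and 0.10 CPM in Flox hearts labelled sedentary, the last in a library with 516 CPM of Myl7. It had 362, 0 and 0.05 CPM in KO hearts labelled exercise, the last with 506 CPM of Myl7, against 0, 560 and 0.11 CPM in Flox hearts labelled exercise.

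**Figure D3:**
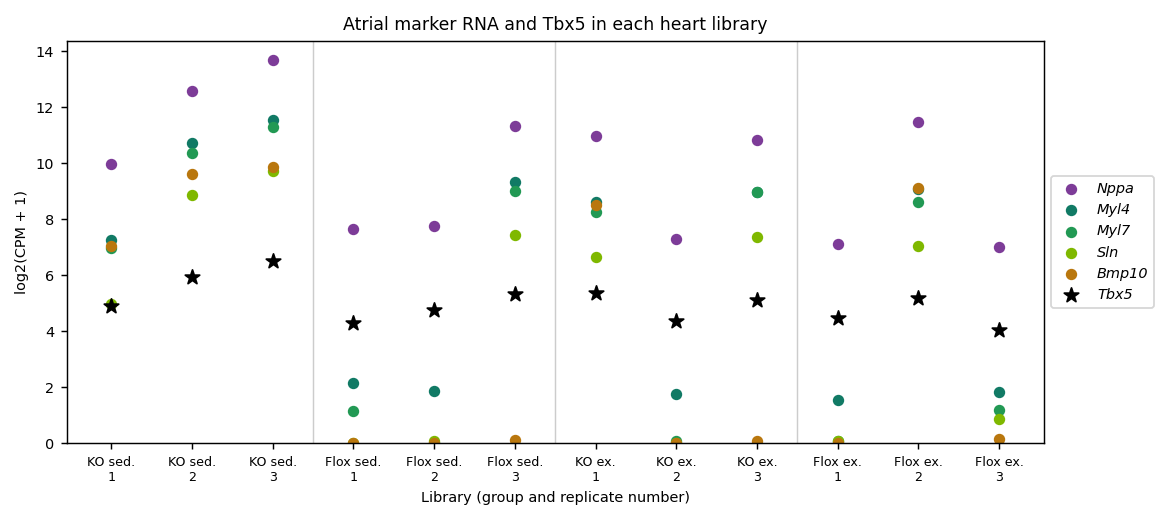
Level as log2(CPM + 1) (vertical axis) of Nppa, Myl4, Myl7, Sln and Bmp10, which are atrial genes, and of Tbx5 (stars) in each of the 12 libraries, by group and replicate number. Myl7 and Sln lie near 0 in 5 libraries, and Tbx5 lies between 15.7 and 26.5 CPM in those and between 29.0 and 91.3 CPM in the other 7. This split comes from the data and mixes the groups.

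Tbx5 was the 1 factor of the 10 whose slope on the atrial index passed. Its slope, fitted with the 4 group means in the model so that only differences within groups count, was 0.26 ± 0.05 log2 units per log2 unit of the index (SE, 12 libraries; edgeR adjusted p = 0.0305), a 1.19-fold higher level per unit. In this comparison 0.696% of all genes passed, 0.676% upward and 0.0197% downward, 9.48% had an unadjusted p under 0.05, and Tbx5 ranked 83rd of 15226 by p. Within each group the library with the highest index also had the highest Tbx5. Tbx5 had 15.7 to 26.5 CPM in the 5 libraries of low index, against 29.0 to 91.3 CPM in the 7 of high index. That split was found from these data and mixes the groups, so it is not a relation within groups. The share of all genes that lie apart across it was not computed.

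The other 9 factors had slopes between -0.03 and 0.03, with 95% intervals between -0.09 and 0.09 and a smallest edgeR adjusted p of 0.707. Mef2a had the steepest of these, at 0.03 ± 0.02, and that of Gata4 was 0.01 ± 0.03. The call for Tbx5 is a narrow one. With no filter on low counts its slope was 0.26 with an edgeR adjusted p of 0.105, and on an index of Myl7, Myl4, Sln and Mybphl alone, whose units differ, it was 0.11 ± 0.03 (edgeR adjusted p = 0.154). Leaving out 1 library at a time kept the slope between 0.22 and 0.28 but lifted the edgeR adjusted p over 0.05 in 7 of 12 fits. The libraries whose absence did so were KO labelled sedentary replicate 2 (0.0565), Flox labelled sedentary replicates 1 (0.0741) and 3 (0.0988), KO labelled exercise replicates 1 (0.0514) and 2 (0.125), and Flox labelled exercise replicates 2 (0.134) and 3 (0.0751). The slope was 0.31 ± 0.07 in the 6 KO libraries alone (edgeR adjusted p = 0.411) and 0.23 ± 0.05 in the 6 Flox libraries alone (edgeR adjusted p = 0.237).

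**Figure D4:**
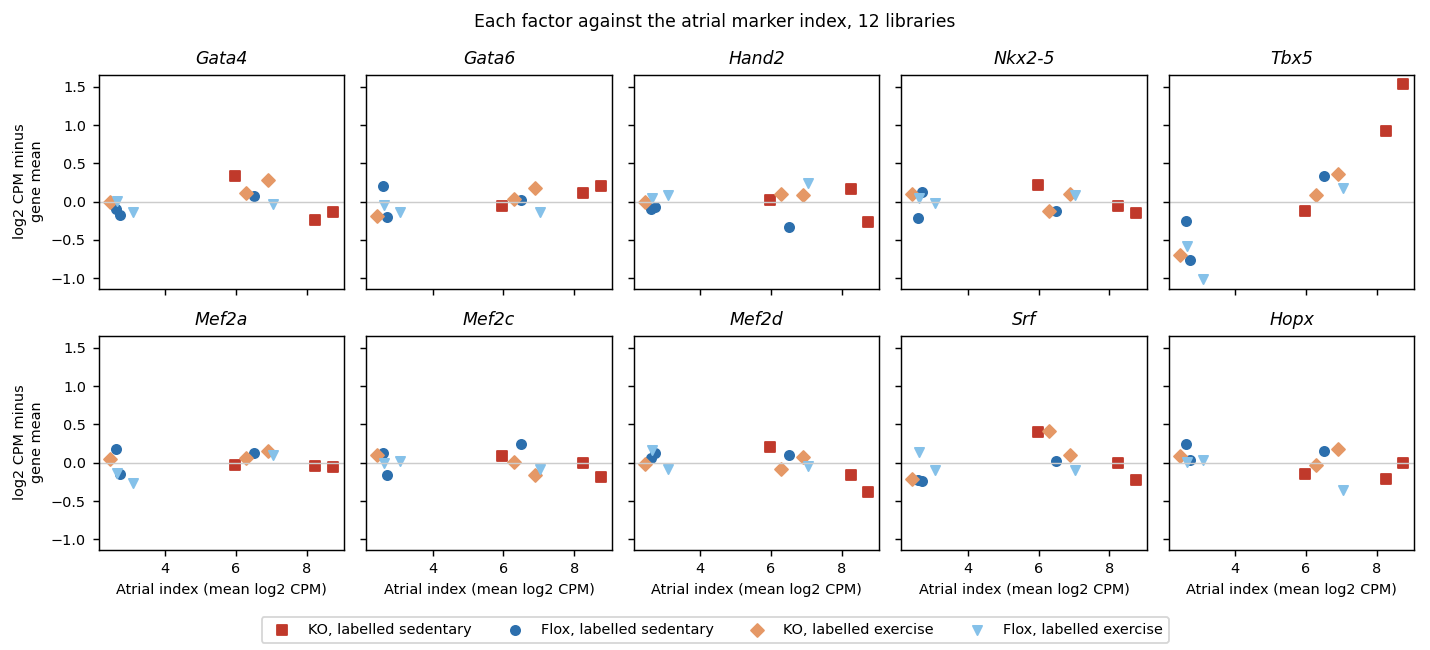
Log2 CPM of each factor minus its mean (vertical axes) against the atrial marker index in mean log2 CPM (horizontal axes), 1 point per library, with shape and colour for the group. Tbx5 climbs from the 5 libraries at low index to the 7 at high index, and the other 9 factors have fitted slopes between -0.03 and 0.03.

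**Figure D5:**
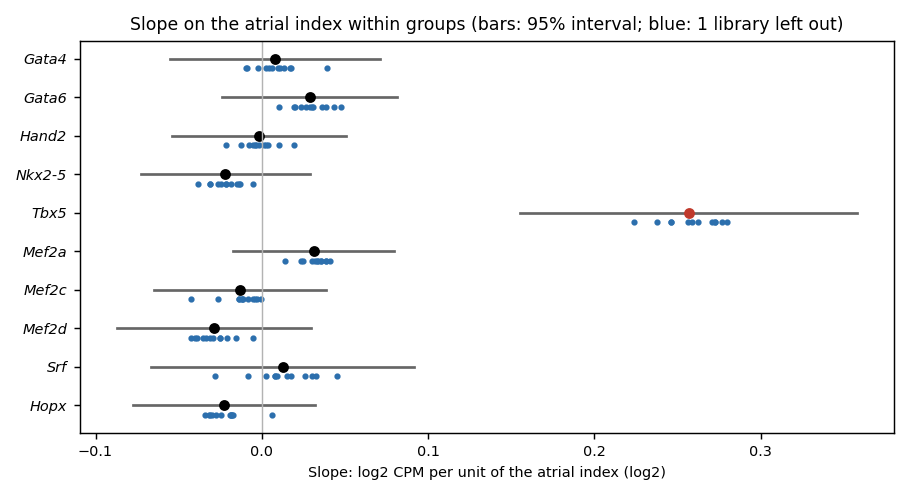
Slope of each factor on the atrial marker index, fitted within groups (log2 CPM per log2 unit of the index). Bars are 95% intervals, blue points the slopes with 1 library left out, and the red point marks Tbx5, whose slopes stay between 0.22 and 0.28.

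With the index as a covariate, the group differences of Tbx5 shrank. KO over Flox under the sedentary label became 0.09 ± 0.29, against 1.09 ± 0.48 without it, and the average KO effect became 0.11 ± 0.20, against 0.73 ± 0.34 without it. Exercise over sedentary label in KO hearts became -0.29 ± 0.26, against -0.95 ± 0.48 without it. None of these passed in either fit. The covariate takes out the slope times the difference in index between groups, so the shrinkage follows from the slope above and is no separate result. Nppa, Gja5 and Bmp10, which are in the index, are also among the genes listed below as targets of the factors. Hopx under the sedentary label moved to -0.18 ± 0.16, against -0.27 ± 0.13. Whether the atrial share of the tissue sets the level of Tbx5 was not tested, since no label gives what each heart sample held.

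Within the 7 libraries of high index, a look added after the data had been seen, Tbx5 had a Pearson r of 0.957 with the index (exact permutation p = 0.00179, adjusted over the 10 factors 0.0179) and a Spearman rho of 0.893 (exact permutation p = 0.0123, adjusted 0.0615). These 7 mix the groups, and the 2 highest are KO hearts labelled sedentary. The permutations exchanged libraries across groups, so group differences enter r, rho and their p-values here, which do not measure a relation within groups. Without these 2, which lie farthest from the median, r was 0.726 over 5 libraries, too few for a test. Mef2d had an r of -0.876 over the 7 (exact permutation p = 0.00635, adjusted 0.0317) and a rho of -0.786 (exact permutation p = 0.048, adjusted 0.12), and its r without those 2 was -0.482. With 5 libraries left, how far the relation of Mef2d rests on those 2 KO hearts cannot be told. The slope of Mef2d over all 12 libraries, fitted within groups, was -0.03 ± 0.03. It was -0.005 without KO labelled sedentary replicate 1, which is not one of those 2. Srf had a rho of -0.893 over the 7, as far from 0 as that of Tbx5 (exact permutation p = 0.0123, adjusted 0.0615), an r of -0.801 (exact permutation p = 0.0403, adjusted 0.101), and an r of -0.864 without those 2. Gata4 had an r of -0.821 (exact permutation p = 0.0262, adjusted 0.0873) and a rho of -0.857 (exact permutation p = 0.0238, adjusted 0.0794), and its r without those 2 was -0.529.

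Set against Nkx2-5 in the same library, the CPM of Tbx5, with no correction for length, was 0.498 to 2.02 times as high in KO hearts labelled sedentary, against 0.340 to 0.868 times in Flox hearts labelled sedentary. Under the exercise label the ratio was 0.365 to 0.754 in KO hearts, against 0.317 to 0.675 in Flox hearts. The ratio spread as Tbx5 itself did, while Nkx2-5 stayed between 43.1 and 58.3 CPM.

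Genes with the pattern most like each factor over the 12 libraries were sought among 8626 genes of at least 10 CPM, by Pearson's r as a description. Tbx5 was followed most closely by Creb3l2, a membrane-bound transcription factor, with r = 0.974, and Npr3, the natriuretic peptide clearance receptor, with r = 0.971. Both had slopes on the atrial index that passed, 0.20 for Creb3l2 (edgeR adjusted p = 0.00638) and 0.39 for Npr3 (edgeR adjusted p = 0.0365). Since both were picked for following Tbx5, whose own slope passed, these slopes are no separate result. The nearest genes of the other factors had lower r. Mef2d was nearest to Plec, the cytoskeletal linker plectin, with r = 0.958, and Jup, the junction protein plakoglobin, with 0.949. Gata4 was nearest to Meis2, a homeodomain factor, with 0.936, and Srf to Ncoa4, a ferritin receptor, with 0.936. Hand2 had the least close neighbour, Col6a1, a collagen VI chain, with 0.791. These points share library, tissue content and depth.

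Of 27 other cardiac transcription factors listed, 24 were tested and none passed in any group comparison. Under the sedentary label 13 of the 24 had a positive KO over Flox difference, with a median log2 difference of 0.05, beside 0.00 over all genes. On the atrial index 1 of 24 passed: Gata5, a GATA factor of the endocardium and outer heart layers, had a slope of 0.78 ± 0.14 (edgeR adjusted p = 0.0242). Gata5 was low throughout, with 0.72, 2.19 and 2.60 CPM in KO hearts labelled sedentary, against 0, 0.05 and 0.15 CPM in Flox hearts labelled sedentary, and 2.16, 0.31 and 0.80 CPM in KO hearts labelled exercise, against 0, 1.21 and 0 CPM in Flox hearts labelled exercise. Tbx20, a T-box partner of Nkx2-5 and Gata4 singled out after its values were seen, had 119, 137 and 135 CPM in KO hearts labelled sedentary, against 68.1, 101 and 105 CPM in Flox hearts labelled sedentary. These did not overlap, as for 4 of the 24 listed factors and 18.4% of all genes in this comparison. The log2 difference of 0.51 ± 0.18 (SE, n = 3 each; edgeR adjusted p = 0.245) did not pass. Its slope on the index was 0.08 ± 0.03 (edgeR adjusted p = 0.342).

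Of 22 cofactors and repressors that bind or modify these factors, such as Myocd for SRF and the class II histone deacetylases for MEF2, 20 were tested and none passed in any group comparison or on the index. Their median log2 difference of KO over Flox in hearts labelled sedentary was -0.10, with 5 of 20 positive. In hearts labelled exercise this median was 0.05, with 11 of 20 positive. Of 30 genes known as targets of the factors, none passed in a group comparison, and 9 of 30 had groups that did not overlap under the sedentary label, where 18.4% of all genes had. The targets' median log2 difference was -0.10 there, beside 0.00 over all genes, with 14 of 30 positive. With the exercise label 2 of 30 targets had groups that did not overlap, beside 14.8% of all genes. The targets' median was then 0.08, beside -0.01 over all genes, with 20 of 30 positive.

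A pair of those targets was singled out after the values were seen. Ankrd1, a stress-responsive cardiac ankyrin-repeat gene, averaged 1379 ± 294 CPM in KO hearts labelled sedentary, against 729 ± 118 CPM in Flox hearts labelled sedentary (SD, n = 3 each). Its log2 difference was 0.92 ± 0.19 (SE, edgeR adjusted p = 0.0826), which missed the threshold. Its slope on the atrial index was 0.02 ± 0.04. Nppb, the B-type natriuretic peptide gene, averaged 346 ± 231 CPM in KO hearts labelled sedentary, against 140.0 ± 35.4 CPM in Flox hearts labelled sedentary, a log2 difference of 1.30 ± 0.42 (edgeR adjusted p = 0.228) with a slope of 0.04 ± 0.09. Neither of the pair moved with the atrial index beyond its error. On the index 2 of the 30 targets passed, Nppa at 0.99 ± 0.06 and Gja5, an atrial and conduction connexin, at 0.55 ± 0.08, and both are in the index itself.

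Markers of other cell types were read in the same fits. On the atrial index 3 of 8 epicardial and mesothelial genes passed upward, Upk3b at 0.86 ± 0.15, Lrrn4 at 1.10 ± 0.18 and Upk1b at 0.99 ± 0.19 (edgeR adjusted p = 0.0359, 0.0208 and 0.0438). The summed CPM of these 8 genes ran from 14.96 to 53.8 in KO hearts labelled sedentary, against 7.56 to 27.0 in Flox hearts labelled sedentary. Macrophage genes had positive slopes in 8 of 8, all with an unadjusted p under 0.05 (median 0.12), and fibroblast genes in 10 of 10, of which 4 were under 0.05 (median 0.10), beside a median of 0.00 and 9.48% over all genes, and none of these passed. Smooth muscle and pericyte genes had negative slopes in 10 of 10, of which 5 were under 0.05 (median -0.09). The part of these cell types in the slope of Tbx5 was not tested. The 10 fibroblast genes summed to 1539 to 1798 CPM in KO hearts labelled sedentary, against 1020 to 1081 CPM in Flox hearts labelled sedentary. In hearts labelled exercise these sums overlapped, at 1155 to 2374 CPM in KO, against 1222 to 2315 CPM in Flox, with 3 of 10 genes positive. Nodal and conduction genes, which include cells where TBX5 is active, summed to 90.4 to 123 CPM in KO hearts labelled sedentary, against 61.7 to 78.1 CPM in Flox hearts labelled sedentary. Of 8 such genes tested, 6 were positive there for KO over Flox, and none passed on the index. The largest differences in mean were those of Cacna2d2, at 28.3 CPM in KO against 1.96 CPM in Flox, and Cntn2, at 12.4 against 3.51 CPM. Tbx3 and Gjc1 had lower means in KO, at 11.5 against 14.997 CPM and 19.6 against 20.4 CPM. In hearts labelled exercise the sums of the nodal and conduction genes overlapped, at 45.96 to 131 CPM in KO, against 53.9 to 94.6 CPM in Flox. In the adipocyte list Adipoq, Cidec and Retn passed upward in KO over Flox hearts labelled sedentary, of 8 tested, of which 6 were positive. The summed CPM of the 9 listed adipocyte genes overlapped there, with 498 to 660 in KO hearts, against 525 to 753 in Flox hearts. Among hearts labelled exercise 3 of the 8 were positive for KO over Flox and none passed. Npr3, of the endothelial list, passed on the index as given above, and no gene of the ventricular, working-cardiomyocyte, fibroblast, smooth muscle and pericyte, macrophage or skeletal muscle lists passed in any of the 6 group comparisons or on the index.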

How the data were processed

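RNA from mouse samples labelled whole heart was read as 12 libraries, made with a ribosomal RNA removal kit per the labels' protocols. The authors deposited a gene-level table of estimated counts, from Salmon per the submitters' processing notes, which also name FastQC and, without saying for what, mm9 and mm10. No version is given. Of 120 values of the 10 factors, 58 were not whole within 0.01, and these estimated counts were rounded. Of 55874 entries, 1696 that name vectors or phages were left out. Coordinates, exon lengths and overlaps come from GENCODE M21 on GRCm38, and promoters from RefSeq on GRCm38.p6.

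Samples were grouped by the treatment word and genotype of their titles. The test was edgeR 4.0.16's quasi-likelihood test with limma 3.58.1 in R 4.3.3: filterByExpr, trimmed mean of M-values scaling, 1 mean per group, robust fitting, and Benjamini-Hochberg adjustment over 15226 genes with a threshold of 0.05. That fit leaves 8 residual degrees of freedom. SE is the log2 difference over the square root of F, and intervals are at 95%. The atrial index is the mean log2 CPM (prior count 2) of Myl7, Myl4, Sln, Nppa, Mybphl, Bmp10, Kcnj3, Kcnj5, Kcna5, Gja5, Dkk3, Stard10, Fgf12, Pam and Chrm2, and its slope was fitted beside the 4 group means (7 residual degrees of freedom). The scripts were tested on simulated data. With 17465400 to 20467300 counts a library and at least 283 counts per factor, the spread between libraries, not counting error, limits precision. Alternatives were DESeq2 1.42.0, size factors by relative log expression, no filter on low counts, no mitochondrially encoded genes, a replicate block, the index as covariate, other indices, each genotype alone and each library left out. No 2 libraries of a group agreed within counting noise.

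The 10 factors and the gene lists were chosen with earlier results of these data known. Genes named were the 10 factors, Cited4, 4 leading atrial genes, list genes past the threshold and the 2 genes of at least 10 CPM most correlated with each factor. Tbx20, Ankrd1, Nppb, Bmp10 and Hand2os1 were added after their values were seen.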

Additional observations from a re-analysis of the deposited data

How the results depend on the processing

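Over all alternatives, 1310 values of the 10 factors were recomputed: 1298 kept their side of the threshold, 12 did not, and 0 reversed a call. Those 12 were all slopes of Tbx5. Of 1287 values that passed in neither fit, 70 had the other sign. No factor passed in a group comparison under any alternative, with 1 library left out included. The Tbx5 slope passed with DESeq2, with other size factors, without mitochondrially encoded genes, without Nppa or Bmp10 in the index (the last chosen after seeing the data) and with no group terms. It missed, giving 0 factors passing on the index, with no filter on low counts (edgeR adjusted p = 0.105), with an index of Myl7, Myl4, Sln and Mybphl (0.154), and in the KO (0.411) or Flox (0.237) libraries alone; 1 library left out gave 0 to 1 factors.

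The number of genes passing moved more. KO over Flox under the sedentary label called 19 genes, DESeq2 394, no filter 120, the replicate block 37, the index as covariate 3, and 1 library left out 2 (without Flox labelled sedentary replicate 2) to 479 (without KO labelled sedentary replicate 1). Under the exercise label the number was 1, with DESeq2 10, with no filter 4, and 1 to 2 with 1 library left out. Exercise over sedentary label in KO hearts called 3, DESeq2 114, relative log expression size factors 1, no filter 30, the covariate 0, and 1 library left out 0 to 566 (without KO labelled sedentary replicate 1). In Flox hearts it called 0 (1129 genes had an unadjusted p under 0.05), DESeq2 49, no filter 2, and 0 to 2 with 1 library left out. The average KO effect called 8, DESeq2 172, no filter 49, the block 19, the covariate 2, and 4 (without Flox labelled sedentary replicate 2) to 34 (without KO labelled sedentary replicate 1, or exercise replicate 2) with 1 library left out. The interaction called 0 (1505 genes had an unadjusted p under 0.05), DESeq2 48, no filter 1, and 0 to 2 with 1 library left out. The slope called 106, DESeq2 229, the block 70, no group terms 688, KO libraries alone 6, Flox libraries alone 37, and 56 (without Flox labelled exercise replicate 2) to 147 (without KO labelled exercise replicate 1) with 1 library left out. The cause of these differences was not tested, beyond that fits on 1 genotype or without a library use fewer samples.

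Replicate numbers did not pair the libraries: deviations of same-numbered libraries from their group means correlated at -0.32 to 0.31, above 0.1 in 6 of 18 pairs. With the replicate block the Tbx5 slope was 0.25 (edgeR adjusted p = 0.18), so 0 factors passed. Depth allowed every factor at least 283 counts a library.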
